A study of Mus musculus with 19 samples.

Results

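Striatal RNA from mice that carry a truncated mutant huntingtin (HTT) was compared with striatal RNA from mice that carry the full-length mutant protein. The 8 mice with a fragment, 4 KI-96 and 4 KI-571 mice, were set against 4 KI-FL mice, which makes 12 of the 19 mice sequenced, and the question asked was which genes follow truncation in the same direction in both fragment genotypes. The 2 fragment genotypes were given equal weight, and genes on chromosomes X and Y were left out. All 12 mice were on a C57BL/6 background, were 6 months old and carried 1 knock-in allele and 1 normal allele of Htt. In KI-FL mice, the HD140Q knock-in line, the knock-in allele encodes the whole mutant protein with an expanded polyglutamine (polyQ) repeat. KI-96 and KI-571 mice were made from this line by injecting Cas9 and a guide RNA into zygotes. A frame-shift in exon 2 ends the mutant protein of KI-96 mice, and one in exon 13 ends that of KI-571 mice. The number in each name is how many N-terminal amino acids, apart from the expansion, are kept. The edited founders were bred with wild-type mice, so each fragment genotype has founders and a breeding history of its own, which cannot be told apart from the truncation. The 7 WT mice of the same age were used to place the KI values and to share the estimate of spread.

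HTT is a large, widely expressed scaffold protein, and expansion of the glutamine repeat near its N terminus causes Huntington's disease. Proteases and incomplete splicing can release short N-terminal pieces of the mutant protein, which accumulate in nuclei, and projection neurons of the striatum are the cells most affected. The KI-FL allele encodes the whole mutant protein, whereas the edited alleles encode only its N-terminal part.

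The places that distinguish the genotypes are shown on the reference mouse Htt transcript of GENCODE release M21 (build GRCm38, chromosome 5, plus strand), which has 67 exons and 3119 codons. The first line below covers chr5:34761928-34762008 in exon 1, with the 7 glutamine codons of the unexpanded reference (codons 18 to 24) in capitals, which is where the repeat of all 3 KI genotypes sits. The second line spans the junction of exons 2 and 3 between chr5:34782797 and chr5:34790282, with codon 96 in capitals. The third line covers chr5:34817143-34817187 in exon 13, with the reference codon that has the number in the name KI-571 in capitals. Its label, last KI-571 codon, refers to this number only. Whether the KI-96 and KI-571 alleles keep their last amino acid at these reference codons was not tested. These are reference letters numbered on the mouse protein, and the edited alleles themselves were not read here.
glutamine codons, exon 1: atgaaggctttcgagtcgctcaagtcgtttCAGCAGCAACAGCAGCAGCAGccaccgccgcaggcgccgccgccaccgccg
codon 96, exons 2 and 3: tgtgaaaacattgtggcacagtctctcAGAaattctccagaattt
last KI-571 codon, exon 13: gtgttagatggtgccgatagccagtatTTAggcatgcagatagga
Codon 96 stands at 3.08% of the reference coding sequence and the codon with the number in the name KI-571 at 18.3%. By the numbers in their names, both fragments thus lack most of the protein.

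The deposited values are raw read counts per gene and mouse. Total counts in the 12 KI mice ranged from 12669809 to 23373551 (median 17194763.5), and 3 counts, taken as the floor of detection, corresponded to 0.124 to 0.236 CPM (a gene's counts scaled to a fixed library size, so that mice can be compared), which covers counting error only. One library differed from the rest in its empty genes. Of 17906 tested genes, 3096 had no count in KI-FL replicate 4, against 15 to 214 in the other 11 KI mice, and results are therefore given with and without this mouse. Its total was 15581446 counts, and 39 tested genes had 1 count in it, against 33 to 183 in the others. Why so many genes lacked a count was not tested, and the zeros of KI-FL replicate 4 are uncertain. Xist, a transcript of the inactive X chromosome, exceeded 100 CPM in 6 mice, namely all 4 KI-96 mice, KI-FL replicate 2 and WT replicate 1, where it was at least 884 CPM, and was at most 5.12 CPM in the other 13. No KI-571 mouse was among the 6, and the labels give neither the sex nor the sacrifice batch of any mouse. The summed level of 4 Y-linked genes (Kdm5d, Eif2s3y, Ddx3y and Uty) was at most 0.13 CPM in the 6 and 103 to 205 CPM in the other 13. By these transcripts the KI-96 mice and KI-FL replicate 2 were female, and the KI-571 mice and KI-FL replicates 1, 3 and 4 were male. Between KI-96 and KI-571, sex and genotype cannot be told apart. As a check of the tissue, 39 of 40 genes that mark striatal projection neurons were tested, and none of them was at 0 in any mouse. Their summed level was 16700 to 26100 CPM in KI-96, 19800 to 26100 CPM in KI-571 and 21100 to 25700 CPM in KI-FL mice. In bulk tissue, fewer cells of a type and less RNA per cell cannot be told apart.

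Htt, the targeted gene (ENSMUSG00000029104.15, chromosome 5 from 34761740 to 34912534), was present in every mouse. The 4 KI-96 mice had 176, 183, 241 and 143 CPM, the 4 KI-571 mice 141, 123, 126 and 105 CPM, and the 4 KI-FL mice 160, 154, 178 and 135 CPM. The 7 WT mice ranged from 167 to 196 CPM with a median of 174 CPM. Of the KI-571 mice, 3 lay below every KI-FL mouse, and the KI-96 mice spread above and around the KI-FL mice. The log2 fold change against KI-FL was 0.25 ± 0.13 (SE, edgeR adjusted p = 0.589) for KI-96 and -0.34 ± 0.13 (adjusted p = 0.457) for KI-571, and neither passed. Their mean differed from KI-FL by -0.05 ± 0.11 (edgeR adjusted p = 0.914, and p = 0.778 in an exact permutation test, two-sided, over all divisions of 12 mice into 8 and 4). It was -0.12 without KI-FL replicate 4, and also -0.12 without KI-96 replicate 3, the highest mouse. Reads of the knock-in and any normal allele are summed in these counts. Msantd1, a gene on the same strand that overlaps the Htt locus by 4523 bases, was at -0.24 ± 0.20 (adjusted p = 0.719).

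An adjusted p under 0.05 was found for 7 of the 17906 genes tested (0.0391%). Of these, 4 were higher in fragment mice (0.0223% of the genes tested), namely Tnni1, Rpl3, Dbndd2 and Olfr287, and 3 were lower (0.0168%), namely Catspere1, Gm34788 and A730060N03Rik. All 7 had the same sign in KI-96 and KI-571 mice, which share the 4 KI-FL mice as their comparison. The same held for 12816 of the 17906 genes tested, and for 1792 of the 1794 with an unadjusted p under 0.05. A shared sign therefore does not set the called genes apart. For 6 of the 7 the fragment and KI-FL mice did not overlap. Over all genes tested, all 8 fragment mice lay above all 4 KI-FL mice for 106 genes (0.592%) and below them for 65 genes (0.363%). At an unadjusted p under 0.05 there were 1794 genes, 1009 higher and 785 lower. At an adjusted p under 0.1 there were 30 genes (0.168%), 18 higher and 12 lower, of which 16 code for protein, and all 30 had the same sign in both fragment genotypes. Without KI-FL replicate 4, 0 genes passed 0.05 by edgeR, the smallest adjusted p was 0.149, and 1298 genes had an unadjusted p under 0.05. With DESeq2 in place of edgeR on all mice, the filter on low counts changed as well, and 23718 genes had an adjusted p. Of these, 145 passed, 102 higher and 43 lower, and these included the 7. The median log2 fold change of all genes tested was 0.02, and 54.6% of them were positive. Without KI-FL replicate 4 the median was -0.00122.

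**Figure D1:**
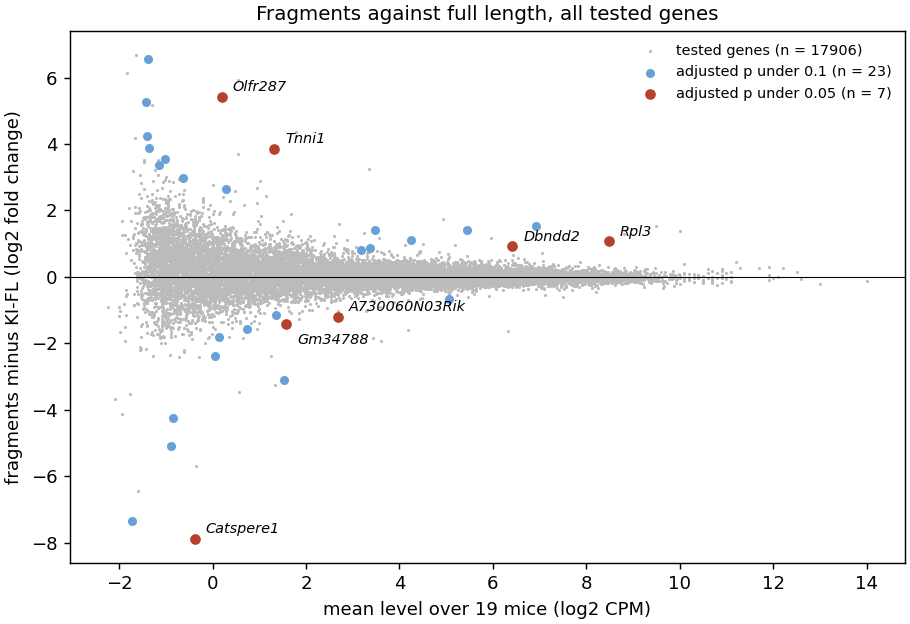
Each point is a tested gene, with its mean level over 19 mice on the x axis (log2 CPM) and the log2 fold change of the fragment genotypes against KI-FL on the y axis. The 7 genes with an adjusted p under 0.05 are red and labelled, another 23 genes under 0.1 are blue, and Rpl3 and Dbndd2 are the labelled genes farthest to the right.

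When the genotypes were taken singly, KI-571 differed from KI-FL at 14 genes (0.0782%) and KI-96 at 0 genes (0%). At an unadjusted p under 0.05 these comparisons held 1552 and 1587 genes, and DESeq2, with its own filter on low counts, called 110 and 33. The direct comparison of KI-96 with KI-571 also called 0 genes (0%), with 963 genes at an unadjusted p under 0.05 and 29 genes called by DESeq2. Among the 7 called genes the smallest adjusted p for a difference between KI-96 and KI-571 was 0.499. Against WT mice, KI-FL differed at 45 genes (0.251%) and the mean of the fragments at 5 genes (0.0279%), and the values of these comparisons are given below for the called genes.

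Tnni1 encodes the slow skeletal muscle form of troponin I, the inhibitory subunit of the troponin complex that makes contraction respond to calcium. It had 6.63, 3.32, 4.58 and 4.05 CPM in KI-96 mice, 7.26, 6.91, 5.21 and 9.54 CPM in KI-571 mice and 0.662, 0.315, 0.402 and 0.193 CPM in KI-FL mice. The lowest fragment mouse was thus well above the highest KI-FL mouse, and the KI-FL values rest on 10, 4, 8 and 3 counts. The log2 fold change was 3.85 ± 0.65 (SE, adjusted p = 0.0299), with 3.53 in KI-96 and 4.17 in KI-571 mice, and without KI-FL replicate 4 it was 3.62 (adjusted p = 0.149). WT mice were split. WT replicates 2, 3 and 4 had 0.746, 1 and 0.673 CPM, just above the KI-FL mice, whereas the other 4 WT mice had 4.15 to 7.61 CPM and lay within the range of the fragment mice. KI-FL was lower than WT at -3.12 ± 0.64 (adjusted p = 0.0426), and the fragments differed from WT by 0.73 ± 0.41 (adjusted p = 0.663). Tnni1 (ENSMUSG00000026418.16) lies on chromosome 1 from 135779434 to 135810989.

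Olfr287, an odorant receptor gene, showed the same arrangement. It had 38, 71, 29 and 108 counts in KI-96 mice and 105, 80, 39 and 58 in KI-571 mice, but 1, 0, 4 and 0 in KI-FL mice. In CPM this was 1.58 to 5.05 in the 8 fragment mice against at most 0.201 in KI-FL mice. The fitted log2 fold change of 5.42 ± 0.96 (adjusted p = 0.0372) rests on 2 KI-FL mice with no count and so depends on how such zeros are handled. Without KI-FL replicate 4 it was 5.03 (adjusted p = 0.149). WT replicates 1, 5 and 6 had 60, 80 and 68 counts and lay within the fragment range, and the other 4 WT mice had 5 to 10 counts, between the fragment and KI-FL mice. KI-FL was at -4.20 ± 0.97 against WT (adjusted p = 0.0621) and the fragments at 1.22 ± 0.52 (adjusted p = 0.533). Another 3 genes share over 90% of their letters with Olfr287, up to 97.4%, and Gm44579, on the same strand, overlaps it, so reads may have been divided among them. The gene (chromosome 15 from 98206971 to 98221056) is on the minus strand.

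Dbndd2 encodes a dysbindin domain protein and is known to be expressed in oligodendrocytes. KI-96 mice had 87.8, 93.7, 74.8 and 92.1 CPM, KI-571 mice 116, 110, 130 and 127 CPM, and KI-FL mice 56.7, 60.8, 52 and 48.4 CPM. The fragment mice were all above the KI-FL mice, and the KI-571 mice were all above the KI-96 mice. The log2 fold change was 0.92 ± 0.16 (adjusted p = 0.0299), and 0.86 without KI-FL replicate 4 (adjusted p = 0.149). WT replicate 3, with 52.3 CPM, lay among the KI-FL mice, and the other 6 WT mice, with 77.7 to 123 CPM, lay within the fragment range. KI-FL was lower than WT by 0.78 on the log2 scale (-0.78 ± 0.16, adjusted p = 0.0426), and the fragments were at 0.13 ± 0.13 against WT (adjusted p = 0.840). Of the 23 oligodendrocyte and myelin genes, 19 had a positive fold change between fragments and KI-FL, with a median of 0.17, and none was called. Their summed level was 7630 to 13800 CPM in KI-96, 9980 to 14000 CPM in KI-571 and 9410 to 10700 CPM in KI-FL mice, and their part in the Dbndd2 difference was not tested. Gm20458, a gene annotated on the same strand, overlaps Dbndd2 (chromosome 2 from 164486106 to 164493319) by 4655 bases and was not among the genes tested.

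Rpl3, a protein of the large ribosomal subunit, had the highest level per kilobase of exon among the called genes. It had 675, 345, 462 and 491 CPM in KI-96 mice, 849, 501, 528 and 501 CPM in KI-571 mice against 237, 251, 295 and 247 CPM in KI-FL. The fragments were higher by a log2 fold change of 1.07 ± 0.18 (adjusted p = 0.0299), which is 2.1-fold, and 1.05 without KI-FL replicate 4 (adjusted p = 0.149). In contrast to Tnni1 and Dbndd2, KI-FL did not depart from WT (-0.14 ± 0.18, adjusted p = 0.717), and the fragments were above WT at 0.93 ± 0.15 (adjusted p = 0.0185). WT mice ranged from 223 to 360 CPM, and 1 of the 7 lay within the fragment range. KI-571 replicate 1 and KI-96 replicate 1 were the highest of their genotypes. No other ribosomal protein gene was called. Of 79 tested genes for cytosolic ribosomal proteins, 35 had a positive and 44 a negative fold change, and the median was -0.02. Their summed level was 9570 to 16900 CPM in KI-96, 14200 to 19200 CPM in KI-571 and 13700 to 16100 CPM in KI-FL mice. Rpl3l, the muscle form of the same protein, was at 1.44 ± 0.51 and did not pass (adjusted p = 0.373). It was chosen after its values were seen. Rpl3 (chromosome 15 from 80077791 to 80091868, minus strand) has 28 copies with over 90% identity in the transcript annotation, up to 99.8%, of which 1, the pseudogene Gm4959, was counted highly enough to be tested, at 0.98 ± 0.73 (adjusted p = 0.683). Its opposite-strand neighbour Syngr1, which overlaps it by 535 bases, was at 0.03 ± 0.12.

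**Figure D2:**
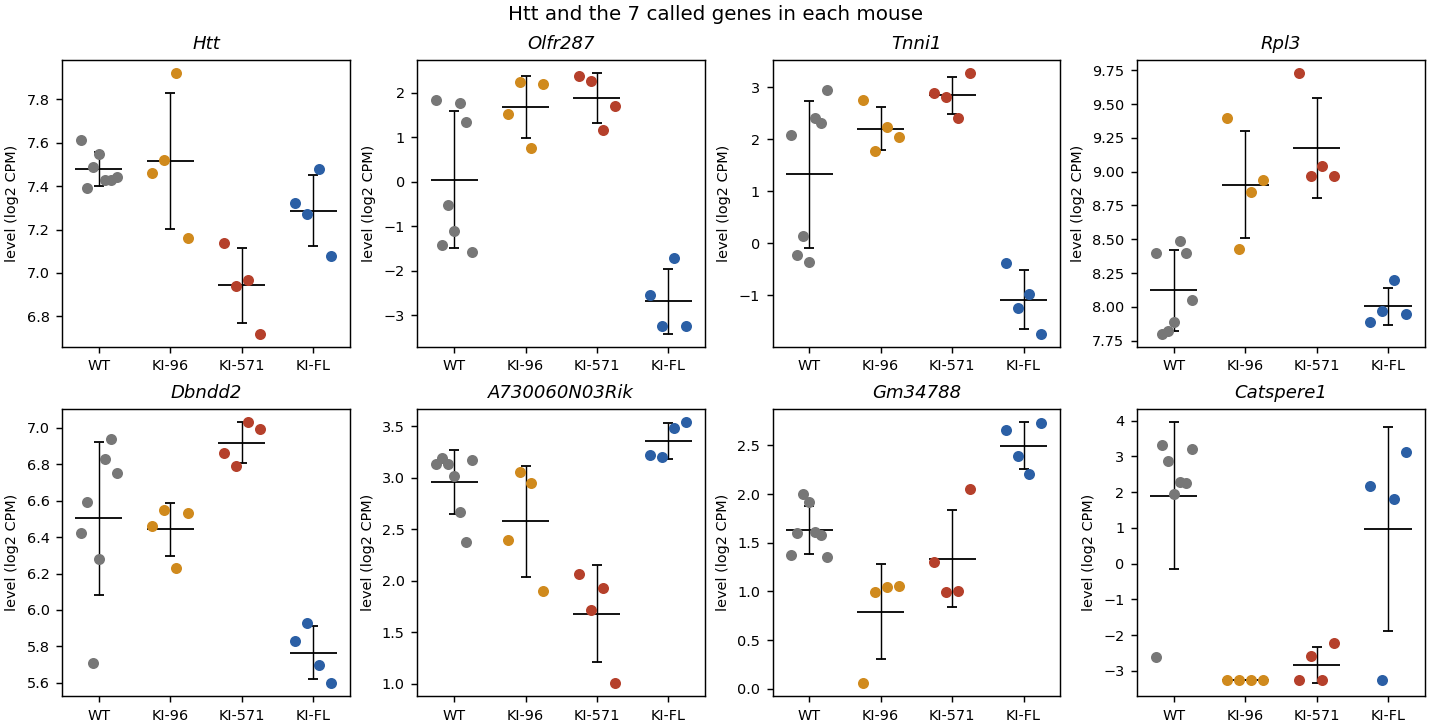
Level in log2 CPM on the y axis for Htt and the 7 called genes, with a point for each mouse (7 WT and 4 of each KI genotype) in replicate order, a bar at the genotype mean and whiskers of 1 SD. KI-FL mice sit below every fragment mouse for Olfr287, Tnni1, Rpl3 and Dbndd2 and above every one for A730060N03Rik and Gm34788, while KI-FL replicate 2 shares the bottom of the Catspere1 panel with the fragment mice and WT mice span the gap for Tnni1 and Olfr287.

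Gm34788 is a long intergenic RNA on chromosome 13 (59411618 to 59419254, minus strand) with no known role. KI-96 mice had 0.937, 1.89, 1.96 and 1.98 CPM, KI-571 mice 2.36, 1.89, 1.9 and 4.03 CPM, and KI-FL mice 6.23, 5.12, 4.52 and 6.51 CPM. All 4 KI-FL mice were above all fragment mice, with KI-571 replicate 4 the nearest to them. The log2 fold change was -1.42 ± 0.24 (adjusted p = 0.0299), and -1.35 without KI-FL replicate 4 (adjusted p = 0.149). All 7 WT mice, at 2.45 to 3.88 CPM, lay within the fragment range and below every KI-FL mouse. KI-FL was at 0.88 ± 0.25 against WT (adjusted p = 0.108) and the fragments at -0.54 ± 0.21 (adjusted p = 0.499). Its opposite-strand neighbour 4930455M05Rik, with an overlap of 147 bases, was at -0.06 ± 0.77. Dynlt1c, Dynlt1f and Dynlt1a share 91.1% to 92% of 213 aligned bases with Gm34788. They were at 0.51 ± 0.53, 0.39 ± 0.48 and 0.24 ± 0.20, and none was called.

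A730060N03Rik is annotated as an antisense RNA of Cacng2, which encodes stargazin, an auxiliary subunit of AMPA glutamate receptors. KI-96 mice had 5.19, 8.26, 7.64 and 3.64 CPM, KI-571 mice 4.09, 3.19, 3.69 and 1.91 CPM, and KI-FL mice 9.21, 9.06, 11.1 and 11.5 CPM. KI-FL mice were above the fragment mice, but KI-96 replicate 2 came close to them. The log2 fold change was -1.20 ± 0.22 (adjusted p = 0.0429), with -0.73 in KI-96 and -1.66 in KI-571 mice, and -1.14 without KI-FL replicate 4 (adjusted p = 0.149). WT mice ranged from 5.12 to 9 CPM, of which 3 lay within the fragment range and 4 between the fragment and KI-FL mice. Neither comparison with WT passed, at 0.39 ± 0.22 for KI-FL (adjusted p = 0.385) and -0.81 ± 0.19 for the fragments (adjusted p = 0.159). The RNA (chromosome 15 from 78119706 to 78144142, plus strand) shares 323 bases with Cacng2 on the opposite strand, which was at 0.35 ± 0.17 (adjusted p = 0.503), and whether counting used strand is not given in the sources used here.

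Catspere1, annotated as an unprocessed pseudogene and named for a subunit of the sperm calcium channel CatSper, was at or under the floor in all 8 fragment mice. It had 0 counts in all KI-96 mice and 0, 1, 0 and 2 in KI-571 mice. KI-FL mice had 67, 0, 67 and 134 counts, so that KI-FL replicate 2 lay with the fragment mice and the groups overlapped. In CPM the KI-FL mean was at least 24.4-fold higher than the floor of 3 counts per library in the fragment mice, and at least 15.5-fold higher without KI-FL replicate 4. The adjusted p was 0.0299, and 0.149 without KI-FL replicate 4. The gene divided the mice in another way as well. All 6 mice with high Xist, which include KI-FL replicate 2 and WT replicate 1, had at most 1 count, and the 9 other WT and KI-FL mice had 67 to 240. The 4 KI-571 mice, with low Xist, had at most 2. With the log2 CPM of Xist as a covariate the adjusted p of Catspere1 was 0.202. The fragments were below WT as well (adjusted p = 0.00514), and KI-FL was at -0.46 ± 0.76 against WT (adjusted p = 0.783). Catspere2, a relative with 90.2% identity over 1814 aligned bases, was at -1.03 ± 0.33 (adjusted p = 0.321). Catspere1 lies on chromosome 1 from 177808550 to 177962233.

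The 7 genes thus differed in where WT mice stood. For Tnni1 and Dbndd2, KI-FL departed from WT and the fragments were not called against WT. For Rpl3 and Catspere1 the reverse held, and Olfr287, Gm34788 and A730060N03Rik were called in neither comparison with WT. The highest WT mouse exceeded the lowest by 11.3-fold for Tnni1, 15.1-fold for Olfr287 and, against the floor of 3 counts, at least 57.3-fold for Catspere1, and by 1.62-fold for Rpl3, 2.35-fold for Dbndd2, 1.59-fold for Gm34788 and 1.76-fold for A730060N03Rik. Per kilobase of exon, Rpl3 was at 155 CPM in KI-96, 187 CPM in KI-571 and 81.1 CPM in KI-FL mice. Dbndd2 was at 19.8, 27.6 and 12.4 CPM per kilobase in the same order, and the other 5 called genes were at most 4.81 CPM per kilobase in any of these genotypes.

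**Figure D3:**
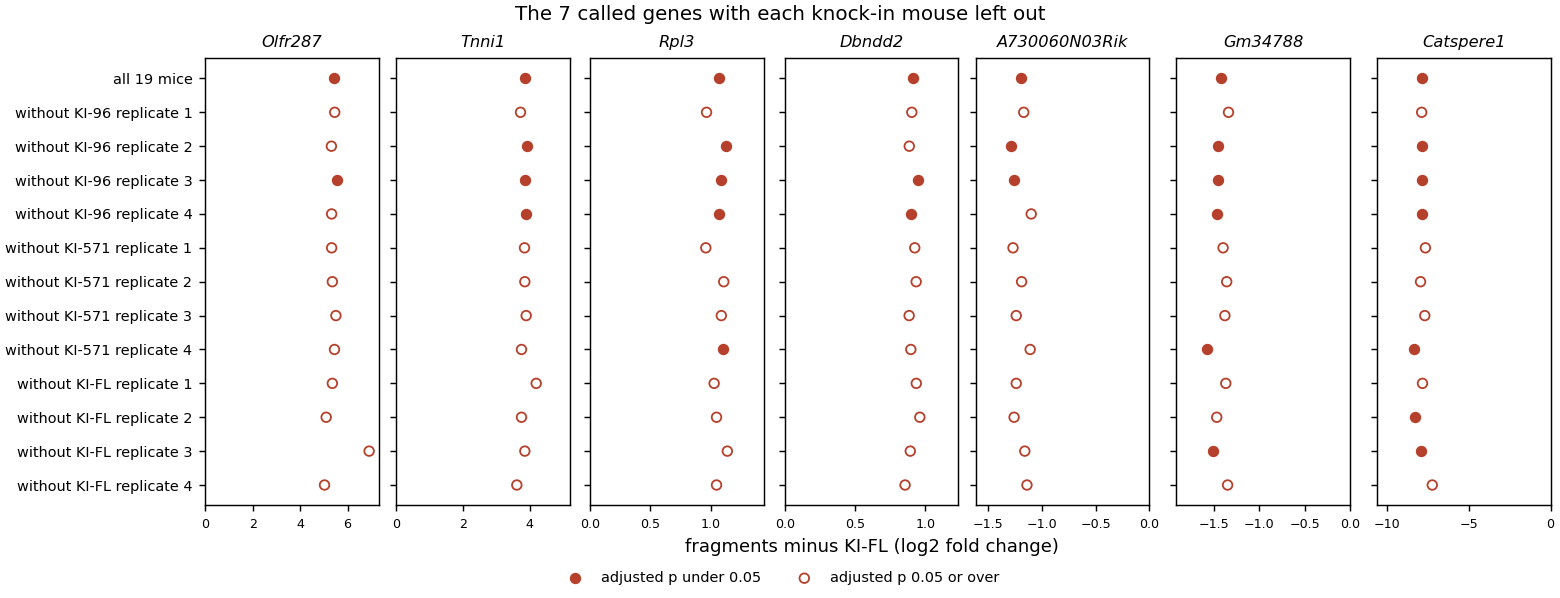
Log2 fold change of the fragments against KI-FL on the x axis for each called gene, with all 19 mice (top) and with each of the 12 KI mice left out in turn. Filled points have an adjusted p under 0.05 and open points do not; the fold changes keep their sign, within 0.86 to 0.96 for Dbndd2 and 5.03 to 6.91 for Olfr287, while all 7 points are open without KI-96 replicate 1, without KI-571 replicates 1, 2 and 3 and without KI-FL replicates 1 and 4.

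Whether a gene passed 0.05 depended on which single mouse was left out. The fold changes kept their sign with any 1 mouse left out, which follows where the groups do not overlap and is no further support. No gene passed by edgeR without KI-96 replicate 1, KI-571 replicate 1, KI-571 replicate 2, KI-571 replicate 3, KI-FL replicate 1 or KI-FL replicate 4. In that order, 2023, 1870, 1644, 1711, 2313 and 1298 genes had an unadjusted p under 0.05. The smallest adjusted p in these fits was 0.0567, 0.052, 0.0558, 0.0562, 0.0873 and 0.149. Without KI-FL replicate 2, 1 gene passed. Over the 12 mice left out in turn, Tnni1 stayed between 3.62 and 4.20, Olfr287 between 5.03 and 6.91, Rpl3 between 0.96 and 1.14 and Dbndd2 between 0.86 and 0.96. Gm34788 stayed between -1.58 and -1.34, A730060N03Rik between -1.29 and -1.10 and Catspere1 between -8.36 and -7.25. The highest Olfr287 value was that without KI-FL replicate 3, the mouse with 4 of the 5 KI-FL counts. Catspere1 and Gm34788 were called in 6 and 5 of the 12, Rpl3 in 4, Tnni1 in 3, A730060N03Rik and Dbndd2 in 2 and Olfr287 in 1. With Xist as a covariate 0 genes passed by edgeR (smallest adjusted p 0.0578, 1412 genes at an unadjusted p under 0.05), and Tnni1, Rpl3, Dbndd2 and Gm34788 each had an adjusted p of 0.0926.

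A further 12 genes were named by the smallest p, either with all mice or without KI-FL replicate 4, and none passed 0.05. CAAA01118383.1, a protein-coding gene on the unplaced scaffold GL456216.1, came nearest. It had 15.3 to 22.3 CPM in KI-96 mice, 11.1 to 17.6 CPM in KI-571 mice and 5.5 to 6.96 CPM in KI-FL, for a log2 fold change of 1.41 ± 0.27 (adjusted p = 0.0576). WT replicates 2, 3 and 4, the mice with the lowest Tnni1 among WT, lay within the KI-FL range at 6.55, 5.94 and 5.9 CPM, and the other WT mice had 10.1 to 16.6 CPM. Arhgef19 was at 17.2 to 33.8 CPM in fragment mice and 9.93 to 13.2 CPM in KI-FL mice (1.12 ± 0.23, adjusted p = 0.0842). Its WT replicates 2, 3 and 4 had 14, 14.8 and 11.3 CPM, and the other 4 had 18.4 to 29.4 CPM.

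Kcns1, a modulatory subunit of voltage-gated potassium channels, had 9.44 to 16.5 CPM in fragment mice and 5.09 to 7.69 CPM in KI-FL mice, with 8.84 to 15.7 CPM in WT mice (0.88 ± 0.17, adjusted p = 0.0842). Syde1 had 8.39 to 12.2 CPM in fragment, 4.39 to 7.08 CPM in KI-FL and 8.53 to 12.7 CPM in WT mice (0.82 ± 0.17, adjusted p = 0.0842). The RNA-binding protein gene Rbm24 went the other way, with 25.9 to 35.5 CPM in fragment, 35.8 to 67 CPM in KI-FL and 25.8 to 35.8 CPM in WT mice (-0.67 ± 0.14, adjusted p = 0.0842). For these 3 genes WT mice stood mostly with the fragment mice, and KI-FL replicate 4 was the most extreme KI-FL mouse. Without it the values were 0.76 for Kcns1, 0.69 for Syde1 and -0.47 for Rbm24, with adjusted p of 0.223, 0.223 and 0.369. Mcm6, a subunit of the replicative helicase, was at 3.97 to 6.92 CPM in fragment mice and 0 to 2.21 CPM in KI-FL mice, the 0 being KI-FL replicate 4 (1.89 ± 0.48, adjusted p = 0.196, and 1.47 without that mouse). Sprr1a, a small proline-rich protein of the epidermal envelope, had 0, 0, 1 and 0 counts in KI-FL mice, and the fragment mean was at least 2.23-fold above the floor of 3 counts per library (adjusted p = 0.0842). KI-96 mice had 10, 6, 2 and 3 Sprr1a counts, so replicates 3 and 4 were at or under this floor, and KI-571 mice had 7, 12, 12 and 8. KI-FL was lower than WT for this gene (adjusted p = 0.0388), where all 7 WT mice had 7 to 13 counts.

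A noncoding RNA and 3 processed pseudogenes among the 12 had mice at or near 0 counts (adjusted p = 0.0842 for Gm6334 and Gm12312, 0.0888 for Gm35082 and 0.155 for Gm10020). The lincRNA Gm35082 was at or near 0 in all fragment mice, at 3.84, 4.81, 1.26 and 0 CPM in KI-FL mice and at 0 to 2.29 CPM in WT mice. Gm10020, with 99.7% identity to Rpl15 over 612 bases, was at 6.03, 0.0788, 6.08 and 0 CPM in KI-FL mice and at 0 to 4.12 CPM in WT mice. Gm6334 was at 0.826 to 2.67 CPM in KI-96 mice and had 0 counts in all 4 KI-571 mice, against 1.39 to 5.22 CPM in KI-FL mice, whose mean was 2.31-fold that of KI-96 and at least 20.6-fold higher than the floor in KI-571. Gm12312, with 96.6% identity to Fgfr1op2, was at 0 to 1.04 CPM in fragment mice and 2.26 to 3.93 CPM in KI-FL mice. Fgfr1op2 itself was at 0.14 ± 0.09 and Rpl15 at 0.01 ± 0.10, so neither was called (adjusted p = 0.611 and 0.990). Pkig, with 95.2% identity to Gm6334 over 231 bases, was at 0.28 ± 0.13 (adjusted p = 0.490). Among other copies of Gm10020, Rpl15-ps2 (98.7% identity) was at -4.13 ± 1.15 (adjusted p = 0.236) and Gm13688 (93.1%) at 0.46 ± 0.47 (adjusted p = 0.777). Reads from such copies may have been divided between parent and pseudogene, and the counts are uncertain.

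**Figure D4:**
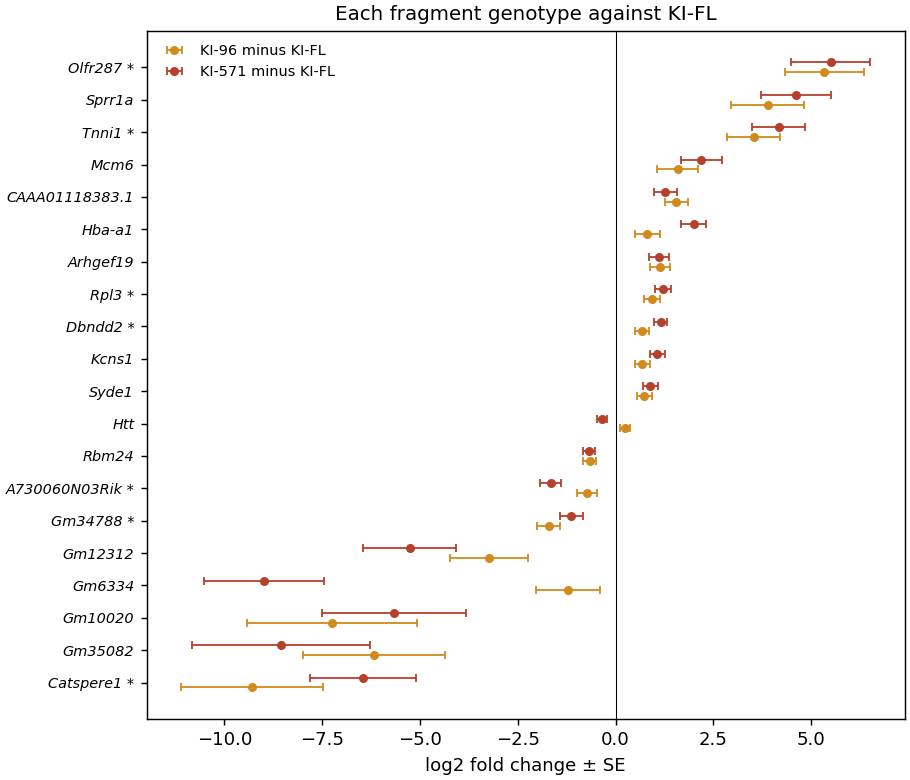
Log2 fold change with its standard error on the x axis for KI-96 against KI-FL (orange) and KI-571 against KI-FL (red), for Htt, the 7 called genes (asterisk) and 12 genes named by the smallest p with or without KI-FL replicate 4. Both colours lie on the same side of 0 for every gene but Htt, and both share the 4 KI-FL mice; the points beyond 3 on either side are of genes with at most 10 counts in some mice, and their distances depend on how zeros are handled.

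The gene lists gave little further movement, and beside Rpl3 no member of the 20 lists was called. For comparison, 0.0391% of all genes tested were called, with a median of 0.02 and 54.6% positive. Among 39 striatal projection neuron genes, 18 were positive and 21 negative, with a median of -0.02. The smallest p there belonged to Ryr1, a calcium release channel, at 60.7 to 159 CPM in fragment and 55.3 to 85.6 CPM in KI-FL mice (0.53 ± 0.20, adjusted p = 0.394). Of 19 genes for HTT and its partner proteins, 9 were positive and 10 negative, with a median of -0.01, and the transcription factor gene Sp1 came first at 0.21 ± 0.12 (adjusted p = 0.566). Of 39 chaperones and co-chaperones, 17 were positive and 22 negative, with a median of -0.01. Hsp90ab1, a cytosolic HSP90, was at -0.18 ± 0.11 (adjusted p = 0.602).

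Lists for energy and protein turnover held more negative than positive members, and KI-96 replicate 3 was the lowest KI mouse in each. Of 36 proteasome subunit genes, 28 were negative, with a median of -0.08, and Psmd9 was at -0.29 ± 0.12 (adjusted p = 0.435). Of 79 nuclear-encoded genes of the respiratory chain, 57 were negative, with a median of -0.06. Ndufs1, a core subunit of complex I, was at -0.21 ± 0.08 (adjusted p = 0.375). Of 12 genes of the mitochondrial genome, 9 were negative, with a median of -0.10, and mt-Cytb was at -0.22 ± 0.18 (adjusted p = 0.712). In the last 2 lists the KI-96 medians were -0.16 and -0.21, and the KI-571 medians were 0.03 and 0.02. KI-96 replicate 3 had a summed level of 5530 CPM for the respiratory chain, where the other 3 KI-96 mice had 9640 to 10600 CPM, and of 27700 CPM for the mitochondrial genome, where they had 38400 to 57800 CPM. Its proteasome sum was 2150 CPM, against 2580 to 2720 CPM. Without this mouse the medians were 0.01 for the respiratory chain, -0.00306 for the mitochondrial genome and -0.04 for the proteasome. Of 21 genes for cholesterol synthesis and uptake, 14 were negative, with a median of -0.01, and mevalonate kinase, Mvk, was at -0.32 ± 0.12 (adjusted p = 0.373).

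Clustered protocadherins, adhesion proteins that give neurons a surface identity, had 39 of 55 members negative and a median of -0.20, with 9 members at an unadjusted p under 0.05, all lower, where 4.38% of all genes tested were lower at that p. Pcdha2 stood first, at 2.6 to 4.04 CPM in KI-96, 0.872 to 2.12 CPM in KI-571 and 3.94 to 5.48 CPM in KI-FL mice (-1.15 ± 0.25, adjusted p = 0.0847). The median was 0.01 in KI-96 and -0.41 in KI-571 mice. Members of the alpha cluster, such as Pcdha2, share their last exons, as do those of the gamma cluster, and reads there may have been divided or dropped. Of 12 glucocorticoid-responsive genes, 10 were negative, with a median of -0.32, and Pdk4, a kinase that restrains pyruvate oxidation, was at -0.51 ± 0.19 (adjusted p = 0.381). Taken singly, the list median was -0.53 in KI-96 and -0.11 in KI-571 mice. KI-FL replicate 2 had a summed level of 1260 CPM, and the other KI-FL mice had 922, 842 and 782 CPM. KI-96 mice ranged from 680 to 899 CPM and KI-571 mice from 893 to 1110 CPM. Of 18 immediate early genes, 10 were positive, with a median of 0.05, and Ier2 was at 0.60 ± 0.26 (adjusted p = 0.462). Of 16 clock genes, 11 were positive, with a median of 0.03, and the clock repressor gene Ciart was at -0.22 ± 0.18 (adjusted p = 0.707).

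**Figure D5:**
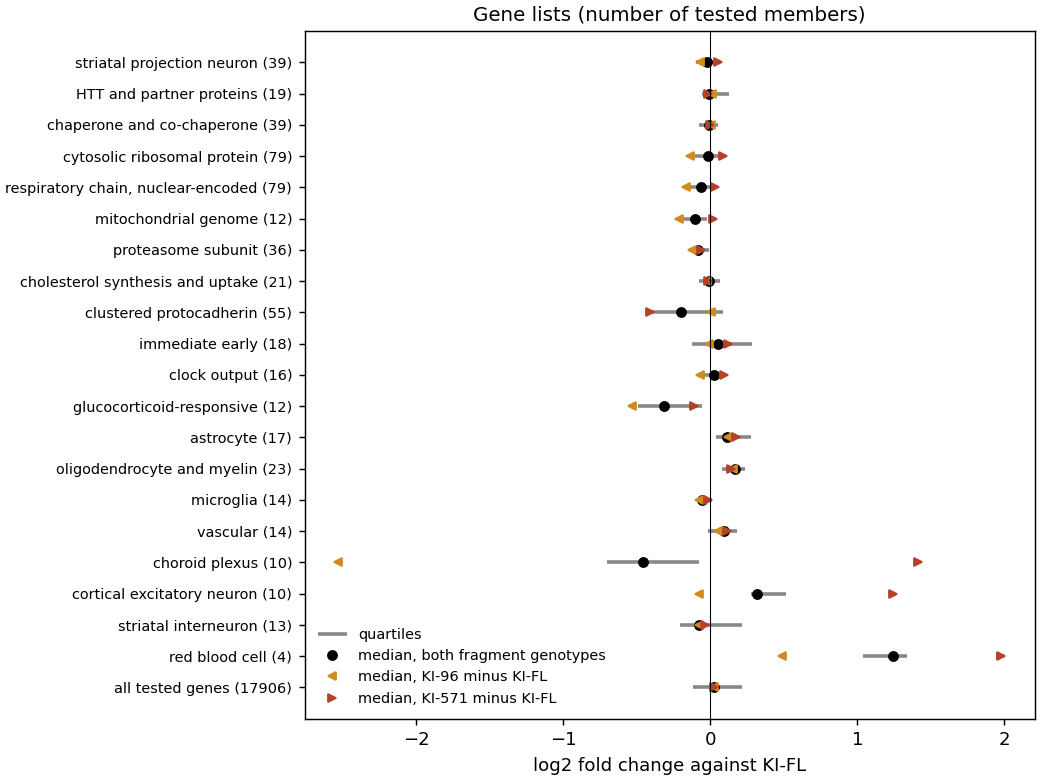
Median log2 fold change against KI-FL on the x axis for each gene list, with the number of tested members after its name. Black points are both fragment genotypes together, grey bars their quartiles, and triangles the medians of KI-96 (orange) and KI-571 (red); most lists lie near the median of all genes, 0.02, and the triangles part most at choroid plexus, -2.53 and 1.41.

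Markers of cells that a striatal dissection can carry in were described in the same way. The red blood cell genes were the highest list. All 4 tested were positive, with a median of 1.24 over fragments against KI-FL, 0.49 in KI-96 and 1.98 in KI-571. Hba-a1, an alpha-globin gene, had 36.6, 30.8, 34.9 and 53.7 CPM in KI-96, 60.5, 147, 79 and 70.4 CPM in KI-571 and 19.9, 11.4, 26.6 and 30.9 CPM in KI-FL mice. KI-FL replicate 4 and KI-96 replicate 2 met at the boundary, and WT mice ranged from 28.2 to 77.9 CPM (1.41 ± 0.29, adjusted p = 0.0842). Hba-a1 and Hba-a2 are 99.8% identical, so their reads may have been divided. The summed level of the list was 79.2 to 137 CPM in KI-96, 154 to 459 CPM in KI-571, 40.3 to 98.9 CPM in KI-FL and 77.1 to 212 CPM in WT mice, and its part in the called genes was not tested.

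Choroid plexus genes went in opposite directions, with a median of -2.53 in KI-96 and 1.41 in KI-571 mice, and none of the 10 had the same sign in both. Ttr, which encodes transthyretin, ranged from 3.27 to 60.1 CPM in KI-96, 18.2 to 5020 CPM in KI-571 and 22.7 to 2780 CPM in KI-FL mice. The summed level of the list ranged from 270 to 420 CPM, 323 to 7800 CPM and 265 to 4390 CPM in the same order. Of 10 cortical excitatory neuron genes, 9 were positive, with a median of 0.32, -0.08 in KI-96 and 1.24 in KI-571. Emx1 was at most 6.02 CPM in any KI mouse and at 0 in KI-FL replicate 4 (2.01 ± 1.13, adjusted p = 0.568). The summed level was 113 to 220 CPM in KI-96, 133 to 609 CPM in KI-571 and 118 to 243 CPM in KI-FL mice. KI-FL replicate 4 had at most 3 counts for 4 of the 10 choroid plexus genes and 4 of the 10 cortical genes.

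Among resident cells, 14 of 17 astrocyte genes were positive, with a median of 0.12. The water channel gene Aqp4 was at 63.5 to 109 CPM in fragment and 65.6 to 77.1 CPM in KI-FL mice (0.35 ± 0.12, adjusted p = 0.353). In the oligodendrocyte list Ermn, a myelin cytoskeletal protein, was at 0.32 ± 0.14 (adjusted p = 0.456). Of 14 microglia genes, 4 were positive, with a median of -0.06, and the purinergic receptor gene P2ry12 was at 0.36 ± 0.13 (adjusted p = 0.380). Of 14 vascular genes, 10 were positive, with a median of 0.09, and the VEGF receptor gene Kdr was at 0.48 ± 0.25 (adjusted p = 0.530). Of 13 striatal interneuron genes, 5 were positive, with a median of -0.08, and Calb2, which encodes calretinin, was at -0.95 ± 0.45 (adjusted p = 0.490). The microglia median changed sign without KI-FL replicate 4, to 0.07, and that of astrocytes was 0.10. Without KI-96 replicate 3 the microglia median changed sign as well, to 0.04, as did that of interneurons, to 0.02, and that of astrocytes was 0.20. The summed microglia level of KI-96 replicate 3 was 386 CPM, the lowest of its genotype.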

How the data were processed

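Striatal RNA of 7 WT mice and 4 mice of each KI genotype was sequenced, and genotype and replicate number were taken from the labels. The authors deposited raw counts of reads per gene, not normalized. Per the paper's methods, adapters were trimmed with BBduk and the reads were aligned to GRCm38 with STAR and counted with HTSeq. Versions of STAR and HTSeq, the annotation, the strand setting, and the sex and sacrifice batch of each mouse are not given in the sources used here. The 5 summary lines and 4 columns of no labelled mouse were not used. Of 54232 gene identifiers, 54165 matched GENCODE M21.

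Counts were scaled by TMM, filtered with filterByExpr (minimum count 10, minimum total 15), and fitted in edgeR 4.0.16 (R 4.3.3) using all 19 mice and 1 term per genotype. The mean of the KI-96 and KI-571 coefficients minus that of KI-FL was tested by the quasi-likelihood F-test and adjusted over 17906 genes by the Benjamini-Hochberg method at 0.05. Log2 CPM used a prior count of 2. The floor was 3 counts per library. Copies were sought with blastn 2.17.0 against GENCODE M21 transcripts. The procedure was tested on simulated data.

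The genes named were Htt, the called genes, the genes of smallest p without KI-FL replicate 4 (up to 6 in each direction), those of smallest p up to 20 genes, and the first gene of each of 20 lists. The comparison, the lists and the rules were chosen with earlier results of these data known. The methods of the study used DESeq2, adjusted for sacrifice batch, and removed a WT sample that they do not name, so all 7 WT mice were kept. Alternatives were DESeq2 1.42.0, its size factors, 2 other filters, only the KI mice, Xist or 1 surrogate variable (sva 3.50.0) as a covariate, a replicate block, a threshold of 0.1, chromosomes X and Y kept, the fragments as 1 group, limma 3.58.1 voom with sample quality weights, and each KI mouse left out.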

Additional observations from a re-analysis of the deposited data

Results flagged for a closer look

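In groups of 4 and 7 mice, the highest and lowest values of Htt, the 7 called genes, total counts and the number of tested genes without a count were examined for a gap to the nearest mouse that was too large for the range of the group. Chance marks about 1 in 20 groups, 40 groups were examined, and 4 were marked. KI-FL replicate 4 had 3096 tested genes without a count, where the 3 others of that genotype had 130 to 214. Rpl3 reached 9.73 log2 CPM in KI-571 replicate 1, above 8.97 to 9.04 in the 3 others. Gm34788 was at 0.0597 log2 CPM in KI-96 replicate 1, below 0.99 to 1.06 in the 3 others. WT replicate 1 had a Catspere1 level of -2.62 log2 CPM, and the remaining WT mice spanned 1.96 to 3.32. No named gene had an adjusted p under 0.05 for a difference between the KI-96 and KI-571 effects.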

How the results depend on the processing

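Beside the 7 genes called between fragments and KI-FL (4 higher, 3 lower), the comparisons of KI-96, of KI-571 and of KI-96 with KI-571 had called 0, 14 and 0. DESeq2 used its own filter on low counts, and 23718 genes had an adjusted p, against 17906 in edgeR. It called 145 genes (102 higher, 43 lower), all 145 in the same direction in both fragment genotypes. In those 3 comparisons it called 33, 110 and 29. Without a filter on low counts edgeR called 34 (19 higher, 15 lower, all 34 in the same direction) and 18, 23 and 22, and 168 genes had all fragment mice above all KI-FL mice. With at least 10 counts in every mouse, where fewer genes were tested, it called 3 (2 higher, 1 lower, all 3 in the same direction), KI-571 differed at 9 genes, and 47 genes had all fragment mice above. With only the 12 KI mice it called 6, of which 1 was lower, and KI-96 differed from KI-FL at 6 genes and from KI-571 at 2. At an adjusted p under 0.1 there were 30 genes (18 higher, 12 lower, all 30 in the same direction) and 26 for KI-571. With Xist as a covariate there were 0 by edgeR, higher, lower or in the same direction, with 1412 genes at an unadjusted p under 0.05, and 8 for KI-571. With 1 surrogate variable there were 0 by edgeR, with 1205 genes at an unadjusted p under 0.05, and 0 for KI-571. With chromosomes X and Y kept, 8 genes were called and 1 between KI-96 and KI-571. With the fragments as 1 group 4 were called, 1 of them lower, and Ttr turned to 0.76 from -1.62. With limma voom and quality weights, which gave KI-FL replicate 4 a weight of 0.116 and KI-96 replicate 3 one of 0.243, 4 were called (2 higher, all 4 in the same direction), and 4 for KI-571. DESeq2's size factors in edgeR left 6. The cause of these changes was not tested.

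With each of the 12 KI mice left out in turn, the genes called ranged from 0 to 10, those higher from 0 to 6, those lower from 0 to 4 and those in the same direction from 0 to 10. KI-96 ranged from 0 to 2, KI-571 from 0 to 19 and KI-96 against KI-571 from 0 to 0. All fragment mice lay above all KI-FL mice for 124 to 296 genes and below for 74 to 175. Htt ranged from -0.12 to 0.02, and was positive at 0.01 (0.00533) without KI-96 replicate 4 and at 0.02 (0.0184) without KI-FL replicate 3. Ttr ranged from -2.20 to 1.99, the latter without KI-FL replicate 1. The 7 called genes kept their sign under every alternative that gave them a value, which is no further support for genes chosen by this contrast. For the genes named, 742 of 874 values kept their sign and their side of the threshold. Another 91 lost and 39 gained a call, and 2 turned. Most of the genes named were never called in the main fit, and kept their side by staying uncalled. Only a called gene can lose a call, so all 91 losses fell on the 7 called genes. With no KI mouse left out and the main threshold, Dbndd2 kept its call most often, in 8 of 11 alternatives. A730060N03Rik kept its call least often, in 3 of 11. Of 480 list medians, 469 moved by less than the spread.

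With a replicate block edgeR called 6 genes, 4 of them among the 7 (Dbndd2, Olfr287, Rpl3 and Tnni1), with 1 for KI-96 and 7 for KI-571. The replicate numbers were not treated as a pairing in the main fit, and whether same-numbered mice shared a batch was not tested. Same-numbered KI-96 and KI-571 mice correlated at 0.262, 0.14, -0.138 and 0.342 for replicates 1 to 4. Over 12 pairs of same-numbered KI mice the correlation of deviations from the group means ran from -0.145 to 0.342 (median 0.02), 4 were over 0.1, and 0 mice correlated best with their own number in both other KI genotypes.

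Sex and sacrifice batch are not in the labels, and all 4 KI-96 mice but no KI-571 mouse had high Xist. With 4 KI-FL mice, 1 of them with many genes at 0, adjusted p near 0.05 turned on single mice. Counts of at most 10 per mouse in the low group, as for Tnni1, Olfr287 and Catspere1, limit the precision of their fold changes. The p-values weigh a difference against the spread between these mice, and in the main fit WT mice share in the estimate of that spread. They do not separate truncation from the founders and breeding history of each fragment genotype.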
